A study of Mus musculus with 4 samples.

Results

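Transcripts of 9 enzymes of glycolysis were compared between livers that lack NIPP1 and control livers. The genes are Gpi1, Pfkl, Aldoa, Tpi1, Pgk1, Pgam1, Eno1, Pklr and Ldha. They were chosen by name from the array files, which hold 14 non-control probes for them among 39429 probes in all. All 14 probes passed the filter on low signal, so all 9 genes were tested among 16312 genes. The arrays were Agilent 4x44K expression arrays, on which 2 RNA samples are labelled with the dyes Cy3 and Cy5 and bind to the same spots.

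Total liver RNA came from untreated male mice of a mixed strain that were 2 months old. The conditional liver NIPP1 KO group and the control group held 4 mice each. Each of 4 arrays carried 1 KO mouse and 1 control mouse, and no mouse was measured more than once. The KO RNA was labelled with Cy3 on 2 arrays (replicates 1 and 2) and with Cy5 on the others (replicates 3 and 4), so the 2 dye orientations also held different mice. The labels name neither a Cre line nor the deleted exons, and they give no allele for the controls. NIPP1 is a nuclear subunit that regulates protein phosphatase 1, and Ppp1r8 is its gene.

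Glycolysis splits glucose to pyruvate and yields ATP and NADH. Its preparatory steps use ATP and end in triose phosphates, and its later steps give ATP and pyruvate. In the liver the pathway runs with gluconeogenesis, which makes glucose through the reverse of the same freely reversible steps. Hepatocytes have their own isozymes at several steps, such as the liver form of pyruvate kinase.

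Ppp1r8 had log2 KO over control of -0.61, -0.75, -0.76 and -0.64 on replicates 1 to 4. Its mean was -0.69 with a limma adjusted p of 0.0589, and -1.22 with a limma adjusted p of 0.0643 from the scanner software's processed signals. These values come from its brighter probe, which was dim, with a mean log2 intensity of 7.16 against 9.45 for Pklr, the dimmest member. The other Ppp1r8 probe, at 7.15, had a mean of -0.66. The size of the loss thus depended on the background correction. The signal was lower in the channel labelled KO on all 4 arrays. All p-values are two-sided, from limma across all genes with Benjamini-Hochberg adjustment and a threshold of 0.05. At that threshold 0 of 16312 genes (0%) passed, while 3714 had an unadjusted p under 0.05. The median of all tested genes was -0.00078, and 49.7% of them were above 0. Across all genes the log2 ratios correlated at 0.52 for replicates 3 and 4, the most alike arrays, and at -0.27 for replicates 1 and 4, the least alike. The separate mice are the only replication, and the fitted errors do not cover differences from one dye orientation to the other. Hepatocyte markers were all 10 tested, with a log2 summed level of 19.6 to 20.2 in KO livers and 19.5 to 20.1 in control livers. These ranges hide a split: the list's median log2 KO over control was -0.33, -0.19, 0.21 and 0.60 on replicates 1 to 4, so its sign changed with the dye orientation.

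The probe sequences show how far probes of the same gene are independent. Tpi1 has 2 probes that share no base. The first is shown whole, and of the second the first 30 bases are given. The files place them on the minus strand of mm9 at chr6:124761923-124761982 and chr6:124760947-124761006.

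Tpi1 probe A_55_P1988424: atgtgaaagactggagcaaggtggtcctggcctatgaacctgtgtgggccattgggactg

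Tpi1 probe A_51_P433824: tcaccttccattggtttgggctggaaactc

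Ldha has 3 probes that lie apart in the transcript, so they are separate measurements of it. The files place them on the plus strand at chr7:54103010-54103069, chr7:54107294-54107353 and chr7:54110937-54110996. The first pair is shown whole, and of the last the first 30 bases are given.

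Ldha probe A_55_P2141876: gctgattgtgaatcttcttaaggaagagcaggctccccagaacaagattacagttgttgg

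Ldha probe A_55_P2141878: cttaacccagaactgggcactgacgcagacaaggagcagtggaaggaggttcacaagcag

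Ldha probe A_55_P2012984: tgcatatggatgatggaaccaaccacccaa

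Gpi1 also has 3 probes, but they overlap at chr7:34987178-34987237, chr7:34987174-34987233 and chr7:34987173-34987232 on the minus strand. They are therefore near copies of 1 measurement. The same 30 bases of each are shown, and the capitals mark the positions in that stretch at which the probes differ. Counted from the 5′ end of probe A_55_P2022434, the differences are G20T in probe A_55_P2030433 and C13T in probe A_55_P1992208. Counted from the 5′ end of probe A_55_P2030433, a further difference in probe A_55_P1992208, C59T, lies outside the stretch.

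Gpi1 probe A_55_P2022434: tgttgttCtgacctGtatttcacaccccag

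Gpi1 probe A_55_P2030433: tgttgttCtgacctTtatttcacaccccag

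Gpi1 probe A_55_P1992208: tgttgttTtgacctGtatttcacaccccag

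As a group, 8 of the 9 genes had a mean log2 KO over control above 0, with a median of 0.14 (log2). The medians over the 9 genes were 0.13, 0.11, 0.27 and 0.18 on replicates 1 to 4, against array medians over all tested genes of -0.013 to 0.025. The median of the members' means was 0.039 with KO in Cy3 and 0.18 with KO in Cy5. None of the 9 passed the threshold of 0.05, as no gene did. At an adjusted p under 0.1, Tpi1 and Eno1 were higher in KO livers, which is 2 of 9 members against 3.52% of all genes. Without any 1 of the 4 replicates neither passed 0.1, with limma adjusted p of 0.14 to 0.282 for Tpi1 and 0.23 to 0.355 for Eno1. Hardly any gene did: of all genes, 75 passed 0.1 without replicate 1 and 0 without replicate 2, 3 or 4, against 910 in the reported fit. At an unadjusted p under 0.05, 4 of 9 members were higher (Tpi1, Eno1, Pgk1 and Pgam1), against 12.7% of all genes. That count was 2 without replicate 1, 3 or 4 and 4 without replicate 2. Over all genes and both directions, 2913, 2768, 2061 and 2940 had an unadjusted limma p under 0.05 without replicates 1 to 4, against 3714 in the reported fit. Tpi1, Pgam1 and Pfkl were higher on all 4 arrays, which is 3 of 9 members against 13.2% of all genes. The members were chosen with earlier results of these data known, so these counts describe the genes and test nothing about the group.

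**Figure D1:**
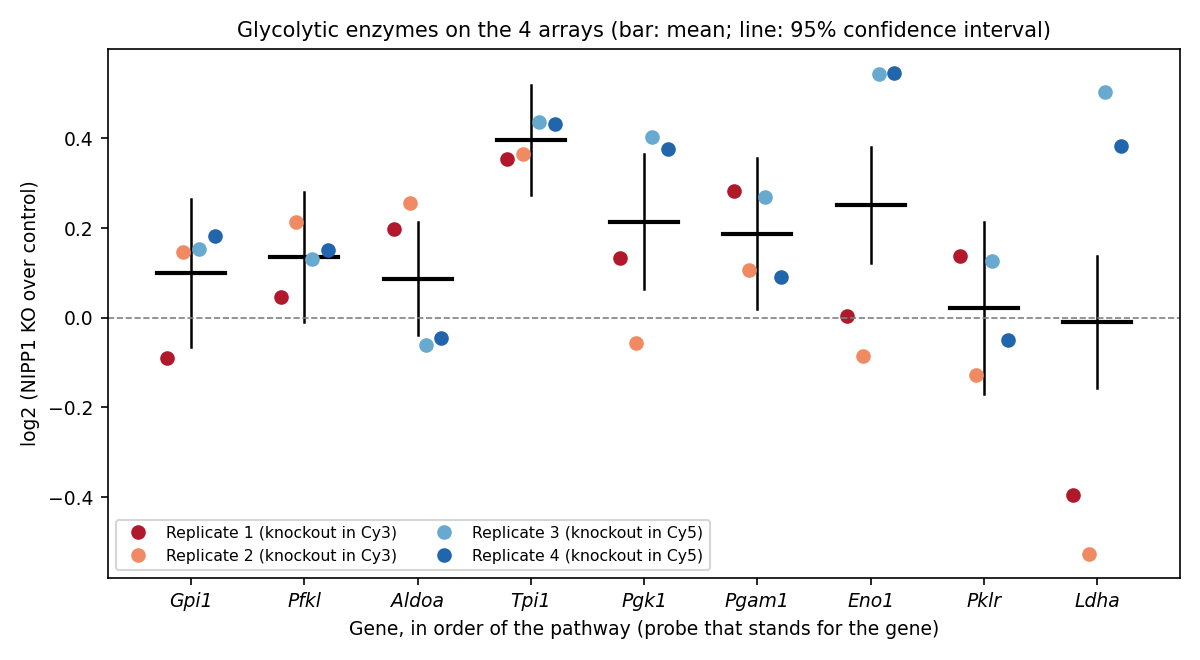
Log2 KO over control (vertical axis) of the 9 enzymes in pathway order, with a point for each of the 4 arrays coloured by replicate, a bar for the mean and a line for the 95% confidence interval of the fit. The 4 Tpi1 points lie together between 0.35 and 0.44, while the Ldha points split by dye orientation, at -0.40 and -0.53 with KO in Cy3 against 0.50 and 0.38 with KO in Cy5.

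Tpi1 had the highest mean of the 9. It encodes triosephosphate isomerase, which interconverts dihydroxyacetone phosphate and glyceraldehyde 3-phosphate. The brighter probe gave log2 KO over control of 0.35, 0.37, 0.44 and 0.43 on replicates 1 to 4. The 4 values lay close together and all were above 0. The mean was 0.40 ± 0.045 (SE, 95% confidence interval 0.27 to 0.52), a fold of 1.32 (limma, unadjusted p = 0.000694, adjusted p = 0.0617). With single replicates left out the mean stayed between 0.39 and 0.40. Of all tested genes, 3.98% had a mean at least as high. The other probe, further 5′ in the transcript, gave 0.45, 0.35, 0.33 and 0.33. Its mean of 0.37 differed from that of the brighter probe by less than the spread between arrays.

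The levels of single mice show the same separation. On the log2 scale Tpi1 had 15.31, 15.29, 15.24 and 15.09 in the KO mice of replicates 1 to 4, against 14.95, 14.93, 14.80 and 14.66 in their control mice. The lowest KO mouse was above the highest control mouse. The other Tpi1 probe did the same, with 13.57, 13.52, 13.52 and 13.35 in KO mice and 13.12, 13.17, 13.19 and 13.02 in control mice. With the probe that stands for each gene, Tpi1 was the only one of the 9 members without overlap between genotypes, against 7.04% of all genes. Both groups were lowest on replicate 4, so the difference within an array was steadier than the level of a mouse.

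**Figure D2:**
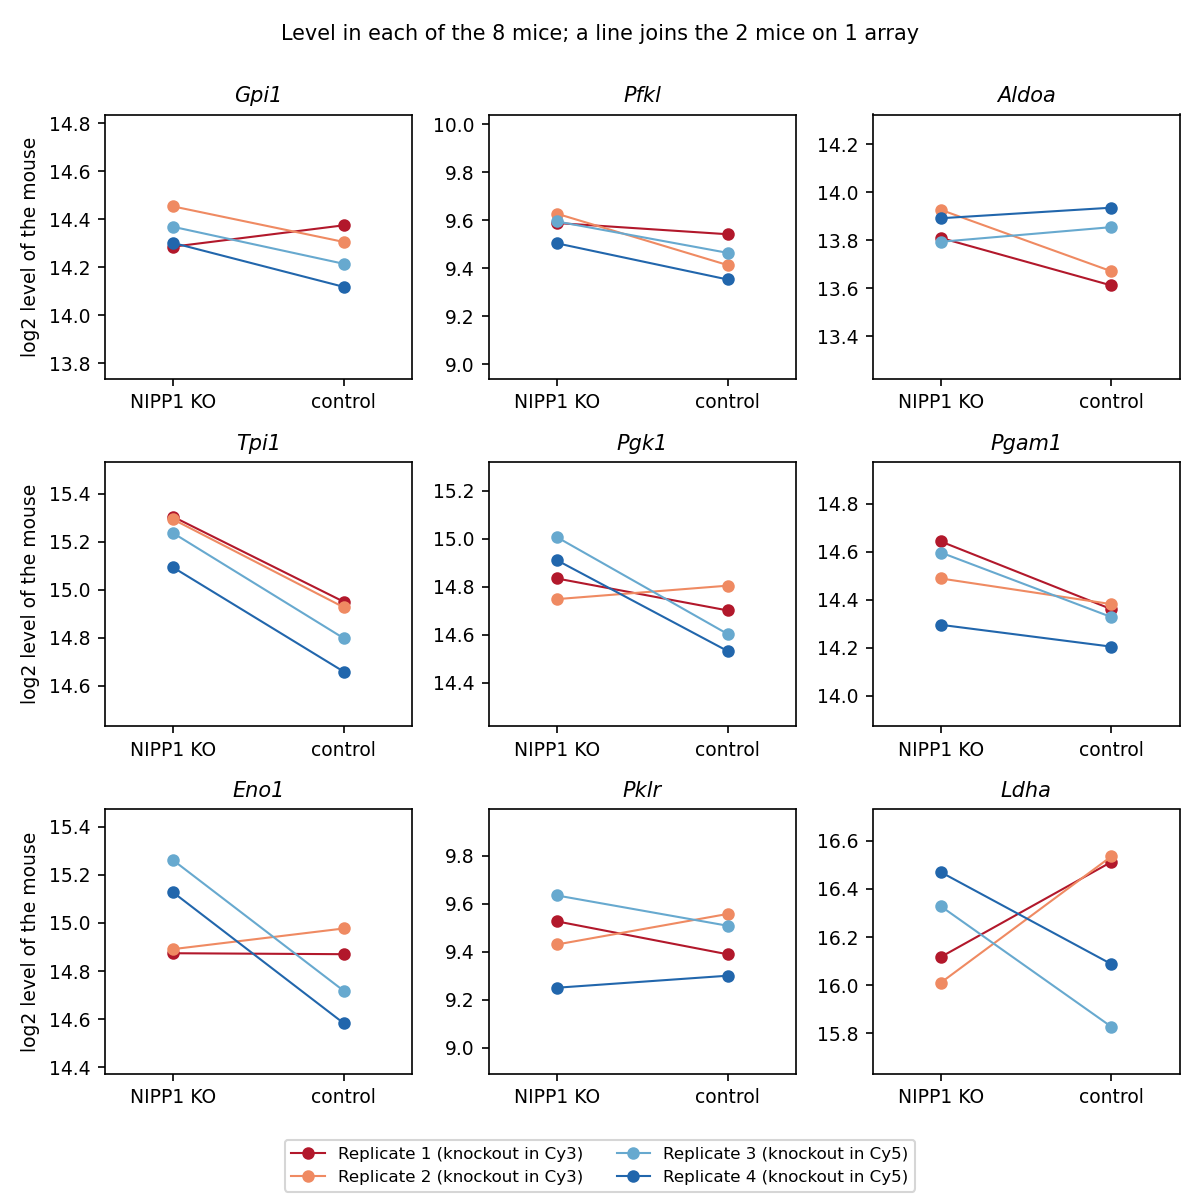
Log2 level (vertical axis, each panel with the same span) of each enzyme in the 4 KO mice on the left and the 4 control mice on the right, with a line joining the 2 mice of an array. Tpi1 lines run parallel and the genotypes do not overlap, and the Ldha lines cross by dye orientation.

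The other enzymes of the preparatory steps had smaller values. Gpi1 encodes glucose 6-phosphate isomerase, which makes fructose 6-phosphate. Its brightest probe gave -0.089, 0.15, 0.15 and 0.18, with replicate 1 below 0 and the others close together. The mean was 0.10 ± 0.061 (SE, interval -0.07 to 0.26), with a limma adjusted p of 0.40. The overlapping probes gave means of 0.061 and 0.092 and were likewise below 0 on replicate 1 alone. The 3 overlapping probes thus had means that differed by less than the spread between arrays.

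Pfkl encodes the liver-type subunit of phosphofructokinase, the committed step of the pathway. It gave 0.047, 0.21, 0.13 and 0.15 on replicates 1 to 4, all above 0. The mean was 0.14 ± 0.054 (SE, interval -0.0099 to 0.28), with a limma adjusted p of 0.242. Its single probe lies at chr10:77450926-77450985 on the minus strand. Mouse levels overlapped, at 9.503 to 9.627 in KO mice and 9.353 to 9.541 in control mice.

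Aldoa encodes aldolase A, the form of muscle and many other tissues. It gave 0.20, 0.26, -0.061 and -0.044, so it was above 0 where the KO RNA carried Cy3 and below 0 where it carried Cy5. The mean was 0.087 ± 0.046 (SE, interval -0.04 to 0.21), with a limma adjusted p of 0.341. Its probe lies at chr7:133938816-133938875 on the minus strand.

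Of the enzymes of the later steps, Pgk1, Pgam1 and Eno1 had means of 0.21, 0.19 and 0.25 and Pklr had one near 0. Pgk1 encodes phosphoglycerate kinase, which makes the pathway's first ATP. It gave 0.13, -0.056, 0.40 and 0.38 on replicates 1 to 4. The values were near 0 with KO in Cy3 and near 0.39 with KO in Cy5. The mean was 0.21 ± 0.056 (SE, interval 0.063 to 0.37), with a limma unadjusted p of 0.0164 and an adjusted p of 0.137. Pgk1 is X-linked, but the files place its single probe at chr3:57906830-57906894 on the minus strand, a span of 65 bases for a 60-base probe. Whether the probe also reads a related sequence was not tested.

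Pgam1 encodes phosphoglycerate mutase, which moves the phosphate group to the neighbouring carbon. It gave 0.28, 0.11, 0.27 and 0.091, all above 0 and alike in both dye orientations. The mean was 0.19 ± 0.062 (SE, interval 0.019 to 0.36), with a limma unadjusted p of 0.0363 and an adjusted p of 0.191. Mouse levels were 14.64, 14.49, 14.60 and 14.30 in KO mice, against 14.36, 14.38, 14.33 and 14.20 in control mice. The KO mouse was above its control on every array, but the KO mouse of replicate 4 was below 3 of the 4 control mice. The probe lies at chr19:41992898-41992957 on the plus strand.

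Eno1 encodes enolase 1, which makes phosphoenolpyruvate. It gave 0.0037, -0.086, 0.54 and 0.55 on replicates 1 to 4. The values lay near 0 with KO in Cy3 and near 0.54 with KO in Cy5, with hardly any spread inside an orientation. The mean was 0.25 ± 0.048 (SE, interval 0.12 to 0.38), with a limma unadjusted p of 0.0052 and an adjusted p of 0.0976. Without the dye term the limma adjusted p was 0.474. Mouse levels were 14.87, 14.89, 15.26 and 15.13 in KO mice, against 14.87, 14.98, 14.72 and 14.58 in control mice. The genotypes overlapped, and only the mice of replicates 3 and 4 stood apart. The single Eno1 probe lies at chr4:149622928-149622987 on the plus strand. As for Pgk1, it was not tested whether this probe also reads a related sequence.

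Pklr encodes the pyruvate kinase of liver and red cells, which makes pyruvate. It gave 0.14, -0.13, 0.13 and -0.05, with no sign shared by either orientation. The mean was 0.022 ± 0.071 (SE, interval -0.17 to 0.21), with a limma adjusted p of 0.88. Mouse levels were 9.25 to 9.63 in KO mice and 9.30 to 9.56 in control mice. The files give its 60-base probe a span of 519 bases at chr3:88948907-88949425 on the plus strand.

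Ldha encodes lactate dehydrogenase A, which interconverts pyruvate and lactate. Its brightest probe gave -0.40, -0.53, 0.50 and 0.38 on replicates 1 to 4. All values with KO in Cy3 were far below 0 and all with KO in Cy5 far above it. The mean was -0.0091 ± 0.055 (SE, interval -0.16 to 0.14), with a limma adjusted p of 0.937. The other probes had 0.064, -0.12, -0.083 and 0.096, and 0.017, -0.16, 0.027 and 0.074. Their means were -0.0097 and -0.011, so the 3 probes had nearly the same mean. The gap between orientations was largest on the brightest, at -0.46 with KO in Cy3 and 0.44 with KO in Cy5, against -0.073 and 0.051 on probe A_55_P2141878 and -0.026 and 0.0065 on probe A_55_P2141876.

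The difference between the dye orientations was therefore read for every member. Replicates 3 and 4 minus replicates 1 and 2 gave 0.90 for Ldha, a gap that 3.61% of all genes reached. The gap was 0.59 for Eno1 (10.1% of genes at least as large) and 0.35 for Pgk1 (26.3%). It was 0.076 for Tpi1, -0.014 for Pgam1 and 0.011 for Pfkl, and at least 78.7% of genes had gaps as large as each of these. Aldoa had a gap of -0.28 (35.8%), so its values were higher with KO in Cy3. Gpi1 had 0.14 (62.5%) and Pklr 0.033 (90.5%). The median absolute gap was 0.20 over all tested genes and 0.27 over the 1345 genes with a mean log2 intensity over 14. Since the orientations hold different mice as well as exchanged dyes, a dye effect and a difference between mice cannot be told apart here.

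**Figure D3:**
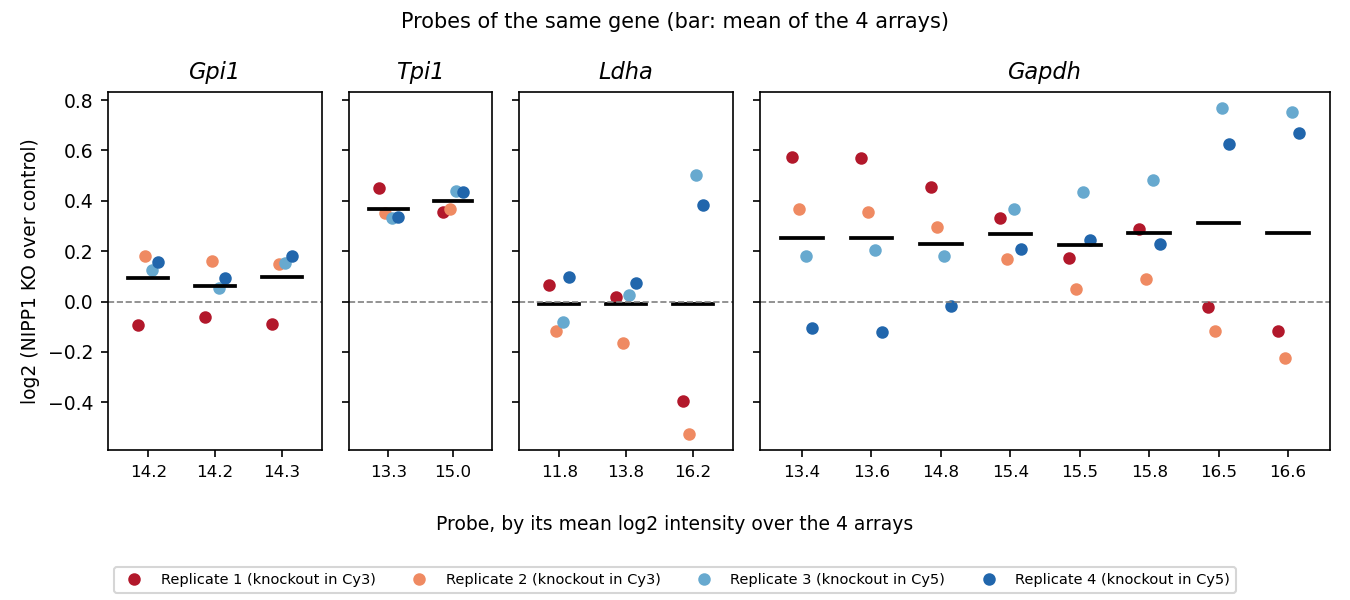
Log2 KO over control (vertical axis) of every probe of Gpi1, Tpi1, Ldha and Gapdh, ordered along the horizontal axis by mean log2 intensity, with a point per array and a bar for the mean. Means of probes of the same gene lie close together, and the points of replicates 1 and 2 fall below those of replicates 3 and 4 on the brightest probes of Ldha and Gapdh.

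Gapdh encodes the enzyme of the step between Tpi1 and Pgk1, is no member and has 8 probes. The probe that stood for the gene is placed on chr7, probe A_55_P2037425 on chr8 and the others on chr6. Of those on chr6, probes A_55_P2081133 and A_55_P2186027 overlap. Whether any of the 8 reads a related sequence was not tested. The means of the 8 probes ran from 0.23 to 0.31. The probe that stood for the gene gave -0.12, -0.22, 0.75 and 0.67, with a mean of 0.27 and a limma adjusted p of 0.0967. On its dimmest probe the order was turned round, with 0.57, 0.37, 0.18 and -0.11. On 3 of the 8 probes, among them the chr8 probe, every KO mouse was above every control mouse. On the probe that stood for the gene the genotypes overlapped, while 7.04% of all genes had no overlap. The means thus stayed close together while the order of the arrays differed from probe to probe.

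The direction of each member's mean was also read under other scalings. Tpi1 was above 0 on every array with the scanner software's processed signals, at 0.39, 0.39, 0.44 and 0.41. With normexp fitted on every spot, Pfkl was -0.069 on replicate 1 and so no longer above 0 on all 4 arrays. With arrays only centred on their medians, without loess, all 9 members were below 0 on replicates 1 and 2 and above 0 on replicates 3 and 4. Tpi1 then gave -0.61, -0.57, 1.48 and 1.49, with a mean of 0.45 and a limma adjusted p of 0.0495. A fit in which each dye channel counts as a sample called Tpi1, Eno1 and Pgk1 at limma adjusted p of 0.00505, 0.00917 and 0.0164, which is 3 of 9 members against 9.71% of all genes called higher in that fit.

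The other isozymes and steps of glycolysis did not share the members' median. Of 18 listed genes, 13 were tested, with a median log2 of 0.00016, and 7 were above 0. At an unadjusted limma p under 0.05, 1 was higher and 2 were lower, against 12.7% and 10.1% of all genes. Aldoc, an aldolase best known in brain, gave -0.91, -0.47, -0.14 and 0.16, with a mean of -0.34 and a limma adjusted p of 0.166. Hk2, Hkdc1, Pgam2, Eno2 and Ldhc were not well above background in enough mice to be tested.

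Gluconeogenesis runs through the reverse of the freely reversible steps, and its list held only genes outside the members. Of 7 listed genes 5 were tested, with 4 below 0 and a median log2 of -0.09, while 49.7% of all genes were above 0. Pck1, the cytosolic phosphoenolpyruvate carboxykinase, gave -0.65, -0.48, -1.95 and -0.69, all below 0. Its mean was -0.94 with a limma adjusted p of 0.123. G6pc, which frees glucose from its phosphate, gave -1.37, -0.28, -1.15 and 0.36, with a mean of -0.61 and a limma adjusted p of 0.34. At an unadjusted p under 0.05, 1 of the 5 was lower, against 10.1% of all genes.

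Control of the upper steps differed from gene to gene. Of 6 genes for fructose 2,6-bisphosphate and hexokinase control, all were tested and 3 were above 0. Gckr, a regulatory protein of the first step in hepatocytes, gave 0.26, 0.41, 0.20 and 0.26, with a mean of 0.28 and a limma adjusted p of 0.0962. Pfkfb3, which makes the phosphofructokinase activator fructose 2,6-bisphosphate and is named here after its values were seen, gave -0.17, 0.26, -2.05 and -1.62. Its mean was -0.90 with a limma adjusted p of 0.064, and the orientations disagreed.

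Transporters and enzymes of sugar and lactate entry and exit were all 11 tested, with 6 above 0 and a median log2 of 0.046. Slc16a7, a monocarboxylate transporter, gave 0.22, 0.63, 0.49 and 0.63, with a mean of 0.49 and a limma adjusted p of 0.0892. Slc2a8, a sugar transporter of inner membranes, gave -0.34, -0.20, -0.40 and -0.34, with a mean of -0.32 and a limma adjusted p of 0.0808. At an adjusted p under 0.1 these were the only 2 of the 11, 1 in each direction, against 3.52% of all genes higher and 2.06% lower.

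The pathways that take carbon from glycolysis held no gene at a limma adjusted p under 0.1 in 4 lists. Of all genes, 3.52% passed that level as higher and 2.06% as lower, so few would be looked for in lists this short. From pyruvate to acetyl-CoA, 12 of 13 genes were tested, with a median of 0.066. Pdhb, a subunit of pyruvate dehydrogenase, had a mean of 0.50 that rested on replicate 4 (0.092, 0.32, 0.24 and 1.33), and Pdk1, a kinase that inhibits that complex, had a mean of -0.44. In the pentose phosphate pathway all 8 were tested with a median of 0.14, and Pgd (0.38) and H6pd (-0.38) lay at its ends. In glycogen metabolism all 11 were tested with a median of 0.0048, with Ugp2 at 0.22 and Phka2 at -0.22. In the glycerol 3-phosphate and NADH shuttles all 9 were tested with a median of 0.16. Higher on all 4 arrays were 3 of the 9, among them Gk (0.44) and Gpd1 (0.29), against 13.2% of all genes. At an unadjusted limma p under 0.05, 4 of the 9 were higher, against 12.7% of all genes. The 9 members had the same 2 counts.

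**Figure D4:**
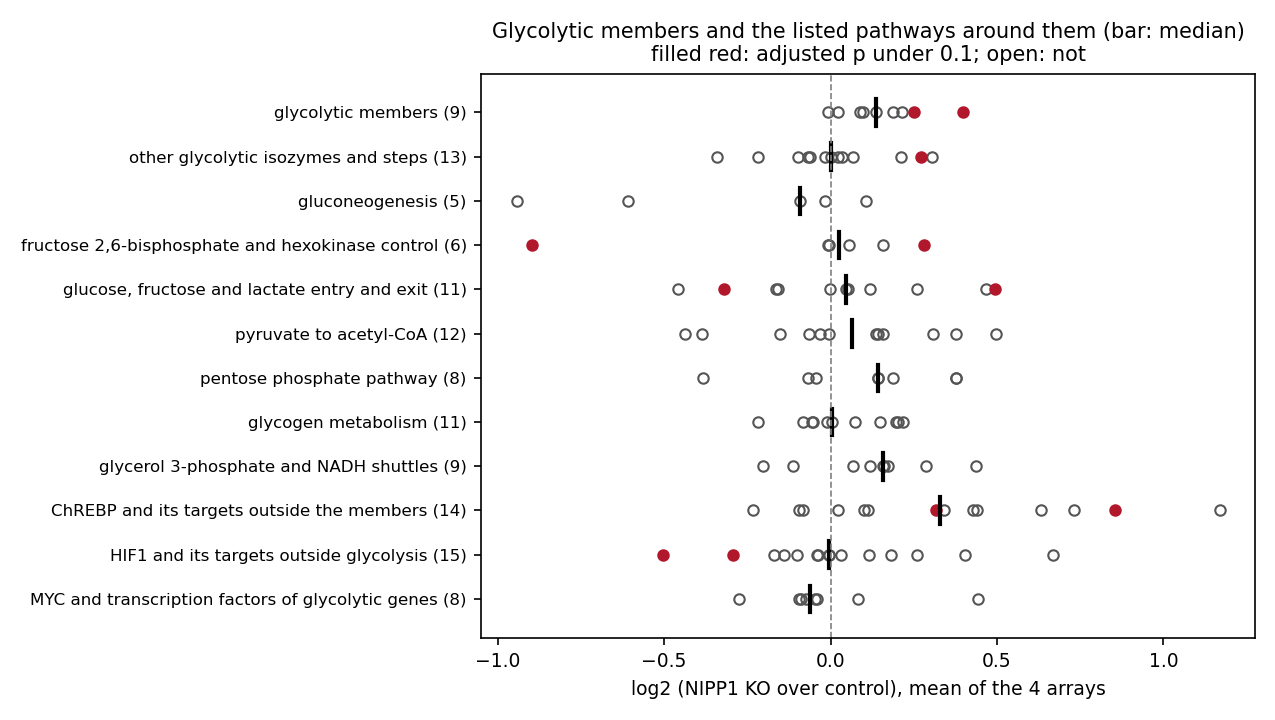
Mean log2 KO over control (horizontal axis) of each tested gene of the 9 members and of 11 listed pathways around them, with the number tested in brackets, a bar for the median and filled points for genes at an adjusted p under 0.1. The members' median is 0.14, between that of gluconeogenesis (-0.09) and that of the ChREBP list (0.33).

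ChREBP, encoded by Mlxipl, is the glucose-sensing transcription factor known to activate Pklr and lipogenic genes in the liver. Of 14 genes of ChREBP and its targets outside the members, all were tested, 11 were above 0 and the median log2 was 0.33. The list's medians were -0.019, -0.045, 0.50 and 0.51 on replicates 1 to 4, so it stood above 0 in 1 dye orientation only. Elovl6, a fatty acid elongase, gave 0.70, 0.48, 1.35 and 0.88, with a mean of 0.85 and a limma adjusted p of 0.0617. Mlxipl itself gave 0.0028, 0.025, 0.51 and 0.73, with a mean of 0.32 and a limma adjusted p of 0.0955. Pklr, the target among the members, had a mean of 0.022 with the interval given above.

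HIF1 is the oxygen-responsive factor known to drive Pgk1, Ldha, Aldoa and Eno1 in many cells. All 15 genes of HIF1 and its targets outside glycolysis were tested, with a median log2 of -0.0046 and 6 above 0. Vegfa, a growth factor of vessels, gave -0.76, -0.87, -0.15 and -0.24, with a mean of -0.50 and a limma adjusted p of 0.0589. Arnt, which encodes a subunit of the HIF1 dimer, gave -0.41, -0.48, -0.22 and -0.05, with a mean of -0.29 and a limma adjusted p of 0.0967. These 2 of 15 were lower at an adjusted p under 0.1, against 2.06% of all genes, and none was higher. At an unadjusted p under 0.05, 2 of 15 were higher and 2 were lower, against 12.7% and 10.1% of all genes. The 2 higher ones, named after their values were seen, were Ndrg1 at 0.67 and Egln3 at 0.41.

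The 8 genes of MYC and other factors known to act on glycolytic genes had a median log2 of -0.061. Myc gave 2.04, 0.11, 0.05 and -0.43, with a mean of 0.44 set by replicate 1 and a limma adjusted p of 0.497. Nr0b2, a repressor of nuclear receptors, had a mean of -0.27 and a limma adjusted p of 0.345. None of the 8 had an unadjusted limma p under 0.05, against 12.7% of all genes higher and 10.1% lower.

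In bulk liver RNA, fewer cells of a type and less RNA per cell cannot be told apart, so marker lists are given beside the members. Biliary markers were tested for 7 of 7 genes, 6 above 0 and 5 higher on all 4 arrays, against 13.2% of all genes. Their log2 summed level was 10.50 to 10.72 in KO mice and 10.01 to 10.41 in control mice, without overlap. Of single genes, 7.04% had every KO mouse above every control mouse. No such share was computed for summed lists. Tspan8, Krt19 and Spp1, named after their values were seen, had means of 0.69, 0.64 and 0.37 at limma adjusted p of 0.0547, 0.064 and 0.0759. These were the 3 of 7 that were higher at an adjusted p under 0.1, against 3.52% of all genes. Krt7 and Epcam had means of 0.13 and 0.097, Cftr 0.010 and Sox9 -0.21. The part of these cells in the Tpi1 result was not tested.

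Pancreatic acinar markers had list medians of 4.23, -2.88, -0.17 and -1.28 on replicates 1 to 4, with a log2 summed level of 9.86 to 15.2 in KO mice and 10.1 to 13.1 in control mice. Try4 and Cel, a trypsin and a lipase of the pancreas, gave 6.15 and 4.25 on replicate 1. The part of these cells in the members' values was not tested.

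Red cells depend on glycolysis and share Pklr with the liver. Of their 8 listed markers 4 were tested, all 4 with means below 0 but 0 of them lower on all 4 arrays. The other 4, among them Epb4.2 and Ahsp, were well above background in 0 mice. Alas2, of erythroid haem synthesis, had a mean of -1.56 and Hbb-bt, a beta globin, one of -0.16. Skeletal muscle, another glycolytic tissue, had 3 of 8 markers tested, with Tnnt3 at -0.16 and Pvalb at 0.15. Macrophage markers were tested for all 9 genes with a median of -0.079 and 8 of 9 below 0. Cd5l had a mean of -0.21, and Cd68, the 1 above 0, had 0.15. All 7 endothelial markers and all 5 tested lymphocyte markers, of 9 listed, had means below 0, with medians of -0.098 and -0.068. Lower on all 4 arrays were 0 macrophage, 1 endothelial and 2 lymphocyte markers, against 10.8% of all genes. None of these markers passed an adjusted p of 0.1.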

How the data were processed

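Total liver RNA of 4 KO and 4 control mice was hybridised to 4 two-colour arrays on 1 slide. The deposited scanner files, made with Agilent Feature Extraction 10.7.3.1 per the file headers, hold mean and background intensities per spot and dye. The authors' deposited value table holds log2 ratios. All 43020 of its values on each array lay within 0.0001 of log2 KO over control from the processed signals, without further centring (column medians -0.051, 0.14, -0.18 and -0.18). Other deposited columns hold flags, names, positions on mm9 and probe sequences.

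Background was corrected with normexp (offset 50), fitted per array and dye without background outliers and the lowest 0.1% of values. The fitted background SD was at most 0.00025, so the correction amounted to subtracting a fitted mean. A fit on every spot gave replicate 1 a background mean of -273 in Cy3 and -185 in Cy5. Loess within arrays followed (controls at weight 0). Controls and feature outliers (194 to 230 per array) were left out, and spots of a probe were averaged. Probes were tested where at least 3 mice of a genotype had signal well above background (20830 probes), and the brightest stood for its gene. No spot was saturated, and 52.7% to 56.3% of spots were well above background. The number of arrays limits the precision.

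limma 3.58.1 (R 4.3.3) fitted a dye intercept and a dye-signed KO effect, n = 4 arrays, and the fit was tested on simulated data. Levels of single mice came from loess and Aquantile scaling. Fits with other background, scaling, filter, probe and model choices were tried, and the closing section gives their effect. All members were named, with Ppp1r8 and Gapdh. Each list gave the genes of 1 sign on all arrays that passed an adjusted p of 0.1, otherwise its 2 largest, and 4 marker lists gave their 2 largest, and some genes so chosen are not reported here. Members and lists were chosen with earlier results of these data known. Figures used matplotlib. No protein sequences were used here.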

Additional observations from a re-analysis of the deposited data

Results flagged for a closer look

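Of 54 probes looked at (members, Gapdh, Ppp1r8 and the named list and marker genes), 4 had an array that stood far from the other 3. Chance gives such a mark to about 1 in 20 groups of 4. The Gpi1 probe A_55_P2022434 had -0.089 on replicate 1, against 0.15 to 0.18 on the other arrays. The Tpi1 probe A_55_P1988424 had 0.45 on replicate 1, against 0.33 to 0.35. Pck1 had -1.95 on replicate 3, against -0.69 to -0.48. Alas2 had 0.36 on replicate 1, against -2.28 to -2.08.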

How the results depend on the processing

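Tpi1, Eno1, Pgk1, Pgam1, Pfkl, Gpi1 and Aldoa kept a mean above 0 in all 19 fits (the one reported and 18 others). By single orientation, Eno1 was -0.041 on replicates 1 and 2 and Aldoa was -0.052 on replicates 3 and 4. Tpi1 ranged from 0.38 to 0.45 (log2), with adjusted p from 0.00505 to 0.282. Median centring, no filter on dim probes, and limma with trend and robust settings each called 1 member, Tpi1, at 0.05, and the separate-channel fit called 3, where 0 were called otherwise. Unadjusted p under 0.05 held for 2 members with no dye term, and for 2 to 4 when single replicates were left out. Ldha turned to 0.0035 with processed signals and with the authors' deposited table, 0.017 with normexp on every spot, 0.037 with median centring, and 0.024 and 0.021 without replicates 2 and 4, within a range of -0.042 to 0.024 over single replicates left out. Pklr turned to -0.013 with normexp on every spot and to -0.045 and -0.022 without replicates 1 and 3, within a range of -0.045 to 0.088. The median of the members was 0.039 on replicates 1 and 2 alone. Over all genes, 8 passed 0.05 with processed signals and with the authors' deposited table, 29 with no background correction, 209 with median centring, 10 with no dye term, 245 with no filter, 42 with every probe on its own, 479 with trend and robust settings, and 2761 with the separate-channel fit. The cause of these differences was not tested. Normexp without trimming was chosen after seeing the data. All arrays lay on 1 slide with 1 scan time, so a slide block was not run. The reported fit already pairs the 2 mice of an array, as it uses within-array ratios. A further block on replicate number could not be made, since each number is a single array.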
